A study of Rattus norvegicus with 10 samples.

Results

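The genes described here are immediate early genes of the liver, most of them transcription factors: Fos, Fosb, Jun, Junb, Egr1, Ier2, Ier3, Atf3, Myc and Klf6. Their probes were chosen by gene, through the accession printed for each probe, and of the 2 probes of Klf6 the brighter was used. Of the 10 listed genes, 8 had a probe whose accession belongs to the gene, out of 13838 genes named on the array. The 8 genes, with 1 probe each but for Klf6, are Fos, Jun, Junb, Atf3, Ier2, Ier3, Myc and Klf6. The Fosb probe carries a transcript number that the gene table did not hold, and it could be named only through the study's own list of transcripts that differ after SM. Its values are therefore given as a description, without a test, and it is kept out of the counts. No probe was matched to Egr1 by accession, so its expression was not analysed here.

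Male Sprague Dawley rats received sulfur mustard (SM), a bifunctional alkylating agent, as a single subcutaneous dose of 3.5 mg/kg in propylene glycol, stated to equal 0.7 of the LD50. Control rats received the same volume of solvent, and the SM+MSTF rats received SM and, 1 h later, 120 mg/kg of MSTF, a mixture of salvianolic acids and flavonoids from 2 medicinal plants, by the intragastric route. Livers were taken 24 h after SM and measured on one-colour oligonucleotide arrays, 1 animal per array, with 3 control, 4 SM and 3 SM+MSTF arrays. The age of the animals is not given in the sources used here, and no group received MSTF alone. The first comparison asks how SM changed these genes, the second how far SM+MSTF livers lay from control, and the third what MSTF changed in SM-treated animals.

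Immediate early genes are transcribed within minutes of a growth, stress or damage signal, without new protein synthesis, and their messages are usually short-lived. MAP kinases reach them through the serum response factor and through CREB and ATF proteins, and many of their products are themselves DNA-binding factors. FOS and JUN proteins pair to form AP-1, EGR proteins are zinc finger factors and several members are induced in the liver by partial hepatectomy. A liver taken at a single late time shows what remains or recurs of this response, not its early peak.

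Upstream sequence was at hand for 5 of the 10 listed genes (Fosb, Klf6, Egr1, Junb and Ier2), as RefSeq windows of the assembly GRCr8 that run from 250 bases before to 50 bases after the start of the gene. The windows of Junb, Ier2 and Klf6 are shown because these members were measured together below, and that of Egr4 because Egr4 was the gene of the related families with the clearest difference after SM. Capitals mark the letters that matched a motif searched on both strands. The motifs were the CArG box bound by serum response factor, the cyclic AMP response element TGACGTCA and its shorter core TGACG, the AP-1 letters TGANTCA, the EGR letters GCGGGGGCG, the E box CACGTG and the TATA box letters TATAA. The core TGACG lies inside TGACGTCA, so a match to the longer letters also counts for the core.
Junb, chr19:40080876-40081175, plus strand: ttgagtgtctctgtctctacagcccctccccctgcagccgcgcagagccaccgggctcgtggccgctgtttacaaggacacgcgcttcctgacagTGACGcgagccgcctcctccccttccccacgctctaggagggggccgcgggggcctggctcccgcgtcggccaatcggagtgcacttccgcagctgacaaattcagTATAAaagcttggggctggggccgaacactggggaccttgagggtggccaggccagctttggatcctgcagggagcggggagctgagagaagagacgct
Ier2, chr19:40399123-40399422, plus strand: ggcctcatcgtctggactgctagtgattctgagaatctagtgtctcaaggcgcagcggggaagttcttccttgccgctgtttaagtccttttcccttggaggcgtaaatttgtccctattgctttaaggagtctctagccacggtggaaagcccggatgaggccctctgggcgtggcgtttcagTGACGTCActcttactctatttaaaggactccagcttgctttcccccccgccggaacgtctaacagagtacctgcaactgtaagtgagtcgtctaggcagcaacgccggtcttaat
Klf6, chr17:69458429-69458728, minus strand: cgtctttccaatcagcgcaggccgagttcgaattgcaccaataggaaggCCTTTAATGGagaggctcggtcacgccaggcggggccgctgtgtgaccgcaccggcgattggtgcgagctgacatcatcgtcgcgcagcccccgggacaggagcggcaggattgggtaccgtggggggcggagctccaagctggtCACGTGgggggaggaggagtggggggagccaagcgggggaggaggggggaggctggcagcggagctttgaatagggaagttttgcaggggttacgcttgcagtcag
Egr4, chr4:119607768-119608067, minus strand: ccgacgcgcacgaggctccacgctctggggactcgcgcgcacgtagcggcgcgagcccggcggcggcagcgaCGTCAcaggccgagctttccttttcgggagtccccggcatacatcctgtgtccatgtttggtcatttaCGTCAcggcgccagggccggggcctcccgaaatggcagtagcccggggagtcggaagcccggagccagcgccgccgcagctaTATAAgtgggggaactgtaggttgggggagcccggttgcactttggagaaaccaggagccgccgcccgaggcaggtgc

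The Ier2 window held the full response element TGACGTCA, which 1.83% of the 33469 windows of the table hold. The Klf6 window held 1 CArG box and 1 E box, found in 1.64% and 6.42% of all windows. The Junb window held the core TGACG and a TATA box, and the Egr4 window held the core at 2 places and a TATA box, against 21.2% and 26.2% of all windows with these letters. None of the 5 members' windows held the AP-1 or EGR letters, which 7.33% and 2.73% of all windows hold. The Egr1 window held 2 CArG boxes and the core at 2 places, and the Fosb window a TATA box on the minus strand. These matches describe the letters of the windows and do not show that a factor binds there.

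All 9 members with a probe were well above background on all 10 arrays, so the messages were measurable in livers of each group. Values below are log2 normalized signals of 1 array each. A difference was called when it reached 1.5-fold and limma's adjusted p, over all tested probes, was under 0.05. In whole tissue, fewer cells that carry a message and less message per cell cannot be told apart.

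**Figure D1:**
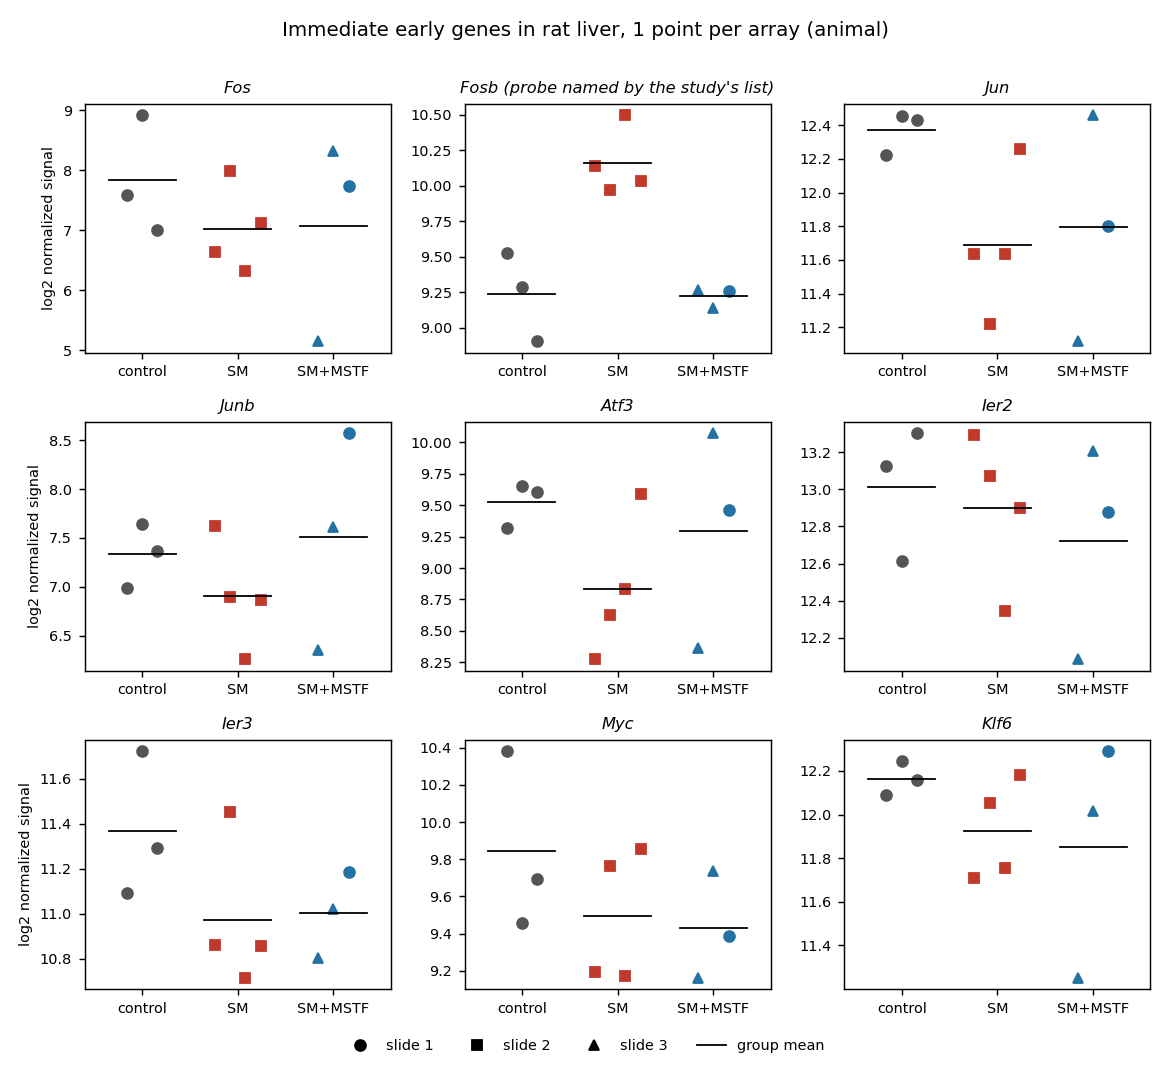
Log2 normalized signal (vertical axes) of the 9 members with a probe in control, SM and SM+MSTF livers, 1 point per array, with the group mean as a line and the slide as the marker shape. The groups overlap for every gene but Fosb, whose 4 SM arrays lie between 9.97 and 10.50, above all control and SM+MSTF arrays.

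Fos, the partner of JUN proteins in AP-1 and the classical immediate early gene, read 7.59, 8.92 and 7.00 in control, 6.65, 7.99, 6.33 and 7.13 in SM and 5.15, 8.32 and 7.73 in SM+MSTF. Control arrays and SM arrays overlapped, and the lowest and the second highest of all values both came from SM+MSTF animals. Group means were 7.84 ± 0.98 (SD, n = 3), 7.02 ± 0.72 (SD, n = 4) and 7.07 ± 1.69 (SD, n = 3). The log2 fold change of SM against control was -0.81 (SE 0.75, adjusted p = 0.644), with a 95% confidence interval from -2.50 to 0.87, and ran from -1.23 without control replicate 3 to -0.27 without control replicate 2. Fos was thus not called, and the interval still holds both a large fall and a moderate rise.

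Jun, the other core subunit of AP-1, had 10 spots per array, of which 9 or 10 were used after outlier spots were left out. It read 12.22, 12.45 and 12.43 in control, 11.63, 11.22, 11.64 and 12.26 in SM and 11.12, 12.46 and 11.80 in SM+MSTF. The controls lay close together, 3 of 4 SM arrays lay below them, and SM replicate 4 lay among them. The log2 fold change of SM against control was -0.68 (SE 0.31, adjusted p = 0.313; 95% confidence interval -1.37 to 0.01). The methods' t-test, without adjustment for the number of probes and with the same fold minimum, passed Jun in this comparison and lost it after adjustment, and Jun was the only one of the 8 members to pass it in any comparison. Spots of the Jun probe on 1 array differed by a median SD of 0.07, which does not include differences of labelling, array or slide.

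Atf3, a stress-induced bZIP factor that pairs with JUN, followed the order seen for Jun. It read 9.32, 9.66 and 9.61 in control, 8.27, 8.63, 8.84 and 9.59 in SM and 8.36, 10.07 and 9.46 in SM+MSTF. As for Jun, SM replicate 4 was the only SM array within the control range, and SM+MSTF replicates 1 and 2 were far apart. The log2 fold change of SM against control was -0.70 (SE 0.40, adjusted p = 0.430; 95% confidence interval -1.58 to 0.19). Junb, a JUN protein with weaker activating capacity than JUN, read 6.99, 7.64 and 7.37 in control, 7.62, 6.90, 6.25 and 6.86 in SM and 6.35, 7.61 and 8.57 in SM+MSTF. Its groups overlapped widely (log2 fold change of SM against control -0.42, SE 0.48, adjusted p = 0.712), from -0.66 without SM replicate 1 to -0.21 without SM replicate 3.

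Ier2 and Ier3 are immediate early response genes whose products are not classical DNA-binding factors. Ier2 acts as a nuclear regulator, and Ier3 in survival and stress signalling. Ier2 read 13.13, 12.61 and 13.30 in control, 13.29, 13.07, 12.34 and 12.90 in SM and 12.08, 13.21 and 12.88 in SM+MSTF, with no order among the groups. Ier3 read 11.09, 11.72 and 11.29 in control, 10.86, 11.45, 10.72 and 10.86 in SM and 10.80, 11.02 and 11.19 in SM+MSTF. For Ier3, 3 of 4 SM arrays lay under the lowest control, and SM replicate 2 lay within the control range (log2 fold change -0.40, SE 0.20, adjusted p = 0.378, and -0.22 without control replicate 2).

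Myc, a bHLH factor of growth and ribosome production, also had 10 spots per array, of which 7 to 10 were used after outlier spots were left out. Its signals were 10.38, 9.46 and 9.69 in control, 9.19, 9.76, 9.17 and 9.86 in SM and 9.16, 9.74 and 9.39 in SM+MSTF. Only control replicate 1 stood above the range of the SM arrays (log2 fold change of SM against control -0.35, SE 0.26, adjusted p = 0.560), and without this array the value was -0.080. Klf6, a zinc finger factor induced early in liver injury, read 12.09, 12.24 and 12.16 in control, 11.71, 12.05, 11.75 and 12.18 in SM and 11.25, 12.01 and 12.29 in SM+MSTF. The log2 fold change was -0.24 (SE 0.23, adjusted p = 0.652). A second, dimmer Klf6 probe gave -0.10 for SM against control and 0.21 for SM+MSTF against control, where the brighter probe gave -0.31, so the sign of the second comparison depends on the probe.

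Counted together, 0 of the 8 members were called in SM against control by limma, where 0.974% of the 22990 tested probes were called higher and 1.42% lower. None of the 8 had an unadjusted p under 0.05, against 16.4% of all tested probes. The fitted values of all 8 lay below 0, as did those of 43.7% of all tested probes, with a median log2 fold change of -0.41 among the members and 0.03 over all tested probes. The arrays of SM and control overlapped for all 8, whereas they did not overlap for 18% of tested probes. The common sign is a description only, since the 8 values come from the same 7 animals, and the Ier2 value turned positive without control replicate 3 (0.033) or without SM replicate 3 (0.074). Among the cell type lists, fitted values lay below 0 for 7 of 7 Kupffer cell and macrophage markers (median -0.15), 4 of 4 natural killer (-0.68), 4 of 5 stellate (-0.23), 4 of 6 hepatocyte (-0.05), 2 of 3 endothelial (-0.0077), 2 of 2 T cell (-0.12) and 1 of 1 B cell markers (-2.18), and above 0 for 3 of 3 erythroid (0.90), 2 of 2 neutrophil (0.68) and 2 of 2 cholangiocyte markers (0.22), and only Klrd1 was called. Neither do these intervals show that the members were alike in both groups.

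**Figure D2:**
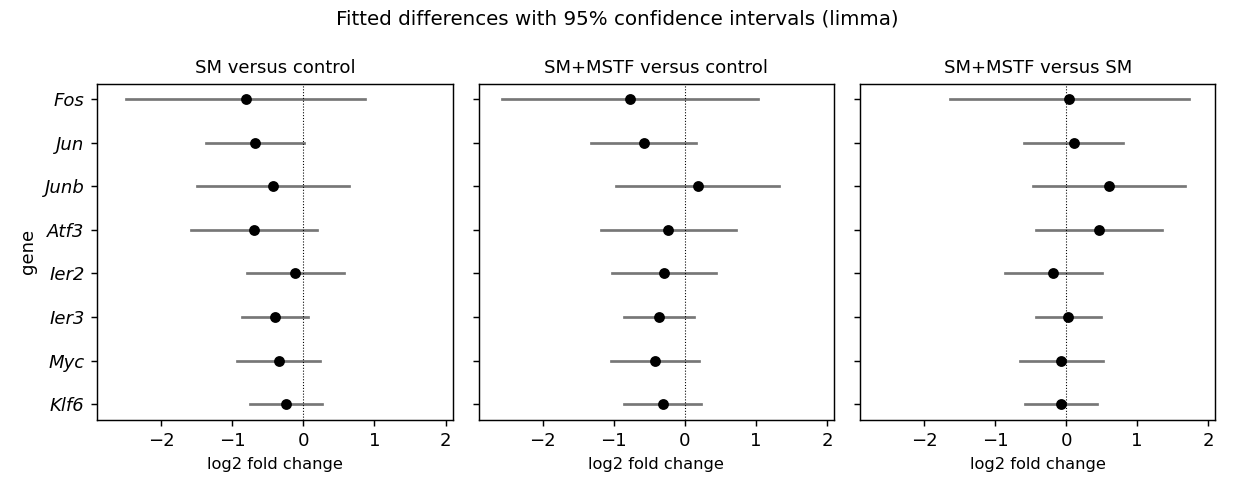
Fitted log2 fold changes (points, horizontal axes) of the 8 members named by accession in the 3 comparisons, with 95% confidence intervals from limma as lines. All intervals cross 0, and those of Fos are the widest, reaching from -2.50 to 0.87 in SM against control.

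SM+MSTF arrays gave 0 of 8 members called against control, and 0 of the 22990 tested probes (0%) were called by limma in that comparison. An unadjusted p under 0.05 was found for 0 of 8 members and 9.56% of tested probes, and the methods' t-test without adjustment passed 0 members and 285 probes with the fold minimum. Fitted values lay below 0 for 7 of 8 members, all but Junb (0.18), and for 49% of tested probes. The 2 groups overlapped for all 8 members and did not overlap for 15.5% of tested probes. The largest fitted differences were -0.77 for Fos (SE 0.80, adjusted p = 0.786) and -0.58 for Jun (SE 0.33, adjusted p = 0.608). Much of this came from 1 animal: without SM+MSTF replicate 1 the Fos value was 0.19, the Jun value -0.24 and the Atf3 value 0.24. Among the cell type lists, fitted values lay above 0 for 7 of 7 Kupffer cell and macrophage (median 0.31), 3 of 3 erythroid (0.59) and 2 of 2 neutrophil markers (0.70). They lay below 0 for 5 of 5 stellate (-0.25), 2 of 2 T cell (-0.15) and 1 of 1 B cell markers (-1.39). Mixed lists were natural killer (3 of 4 below 0), hepatocyte (4 of 6), endothelial (2 of 3) and cholangiocyte (1 of 2), and no marker was called. This comparison and the first share their control arrays.

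SM+MSTF replicate 3 was hybridised on the slide that held the controls, which allows a comparison within 1 slide. Within slide 1 its log2 difference from the controls was -0.10 for Fos, -0.57 for Jun, -0.07 for Atf3, 1.24 for Junb, -0.13 for Ier2, -0.18 for Ier3, -0.46 for Myc and 0.13 for Klf6. The slide as a block in the fit of all arrays gave the same 8 values, since only this slide holds both groups. None was called with the block, where 291 of the 22990 tested probes were called. The 1.24 of Junb had an adjusted p of 0.396 with the block. These values rest on 1 SM+MSTF animal, so they describe that animal and the spread of its group on this slide is not known. All 4 SM arrays lay on a slide of their own, so SM and that slide cannot be told apart.

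In SM+MSTF against SM, 0 of 8 members were called, where limma called 0.318% of tested probes higher and 0.961% lower. None had an unadjusted p under 0.05, against 15.9% of tested probes. Fitted values lay below 0 for 3 of 8 members and 53.9% of tested probes, but this count is not stable, since the sign of Fos, Jun, Ier2, Ier3, Myc and Klf6 turned with 1 array left out (Fos from -0.58 to 1.01). The median log2 fold change was 0.04 among the members and -0.02 over all tested probes. No member's arrays were separate, against 14.6% of tested probes. The largest values were 0.60 for Junb (SE 0.48, adjusted p = 0.541) and 0.47 for Atf3 (SE 0.40, adjusted p = 0.570), which were 0.073 without SM+MSTF replicate 3 and 0.080 without SM+MSTF replicate 2. Of the cell type lists, 7 of 7 Kupffer cell and macrophage (median 0.45), 4 of 4 natural killer (0.65) and 1 of 1 B cell markers (0.79) lay above 0. Of the Kupffer cell and macrophage markers, 4 had an unadjusted p under 0.05. Below 0 lay 3 of 3 erythroid (-0.275), 2 of 2 cholangiocyte (-0.10), 4 of 5 stellate and 2 of 3 endothelial markers. Hepatocyte, neutrophil and T cell markers were evenly split, and only Klrd1 was called. Ordered by group mean, control was the highest group for 7 of the 8 members and SM+MSTF for Junb. No difference between neighbouring groups in these orders was called.

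Fosb, a FOS family member that also pairs with JUN proteins, went the other way. It read 9.53, 9.29 and 8.90 in control, 10.14, 9.97, 10.50 and 10.03 in SM and 9.27, 9.14 and 9.26 in SM+MSTF. All SM arrays lay above all others, and the SM+MSTF arrays lay within the control range. Group means were 9.24 ± 0.32 (SD, n = 3), 10.16 ± 0.24 (SD, n = 4) and 9.22 ± 0.07 (SD, n = 3), a fitted log2 difference of 0.92 for SM against control and -0.94 for SM+MSTF against SM. As the probe was nameable only because the study had listed it as different after SM, this separation is part of how it was found.

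The members varied more between animals of 1 group than most genes on the array. Over the arrays of a group the SD was 1.15 for Fos, 0.72 for Junb, 0.60 for Atf3, 0.46 for Jun, 0.45 for Ier2, 0.38 for Myc, 0.33 for Klf6 and 0.29 for Ier3. The median over these 8 was 0.46, against 0.20 over the 22985 probes that gave a value for every animal, and all 8 lay above the latter. Of all these probes, 99.2% had a smaller SD than Fos and 74.3% a smaller SD than Ier3. Fosb (0.23) and the reference genes Actb (0.27) and Gapdh (0.17) stood nearer to the middle. Nr4a1, an orphan nuclear receptor of the immediate early class that was picked after its values were seen, had an SD of 0.92. The spread was not alike in the groups. In the control arrays alone the SD was 0.08 for Klf6, 0.13 for Jun and 0.18 for Atf3. For the others of the 8 it ran from 0.32 for Ier3 to 0.98 for Fos. In SM+MSTF it ran from 0.19 for Ier3 to 1.69 for Fos. That group lay on slides 1 and 3, and the part of the slide in its spread was not tested.

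**Figure D3:**
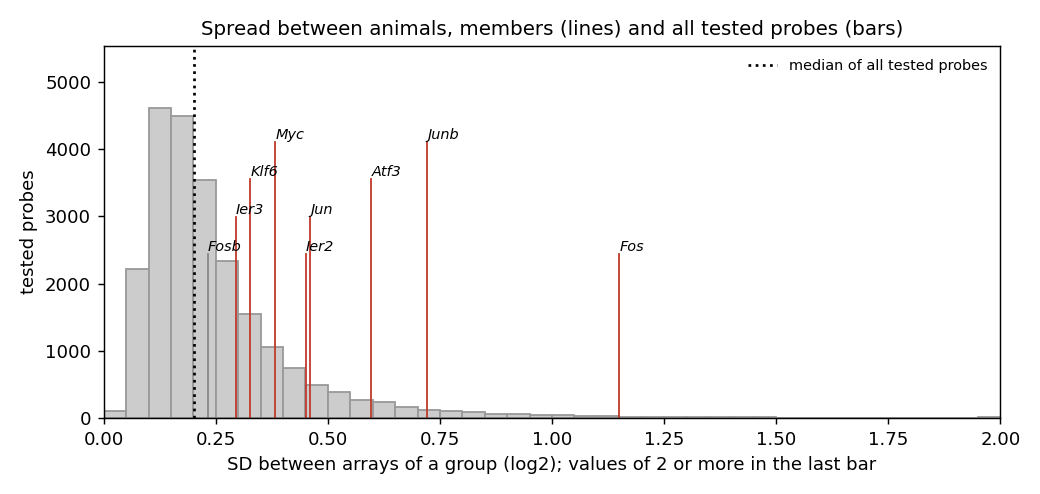
Number of tested probes (vertical axis) by their SD between arrays of a group in log2 (horizontal axis). Lines mark the members, in red for the 8 named by accession and grey for Fosb, and the dotted line marks the median of 0.20 over all tested probes.

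The members also tended to deviate together. In SM+MSTF replicate 1 all 8 members lay below their group mean, by 0.20 for Ier3 up to 1.92 for Fos, and by a mean deviation of -0.80 on the log2 scale. The deviations of a group sum to 0, so the higher values of SM+MSTF replicates 2 and 3 (mean deviations 0.47 and 0.33) follow from this and are no second instance. In SM replicate 3 it was 7 of 8 that lay below (mean deviation -0.34). Across the 10 arrays the deviations of the 28 pairs of members had a mean Pearson r of 0.45, with 25 pairs above 0, where all pairs of tested probes had a mean r of 0.0042. The closest pair was Jun and Atf3 (r = 0.91, Spearman's rho 0.92, 10 arrays). Without SM+MSTF replicate 1, an alternative chosen after seeing the data, the mean r fell to 0.12 with 16 of 28 pairs above 0, so most of the shared deviation rests on that animal, while Jun and Atf3 kept r = 0.83. The median SD of the members without it was 0.38, still above the 0.20 of all probes, and 7 of 8 stayed above that median. Fosb was not part of this pattern, with r below 0 against each of the 8 members. These correlations describe arrays that share their processing, and no p is given for them.

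**Figure D4:**
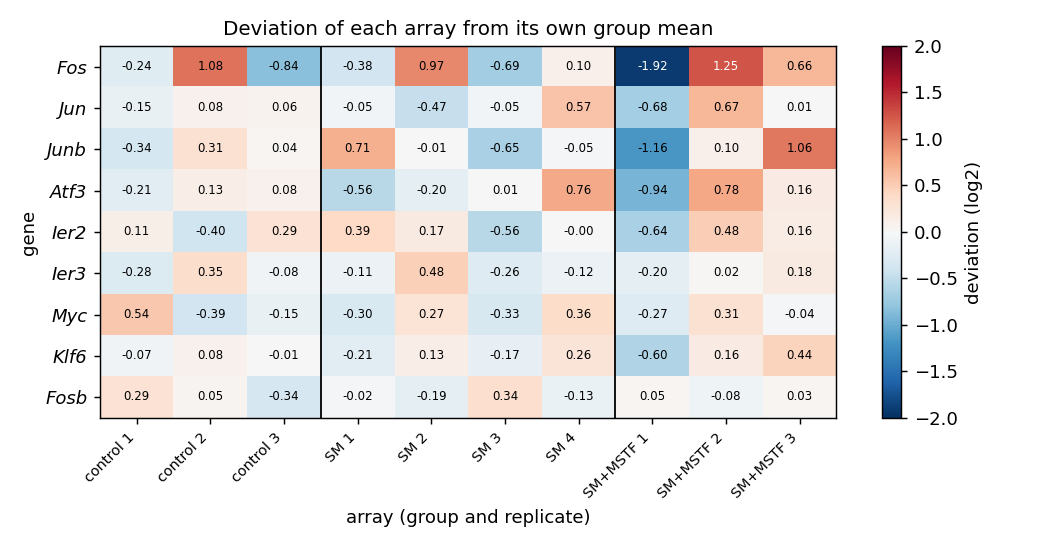
Deviation of each array (columns) from the mean of its own group in log2, for the 8 members named by accession and Fosb (rows); blue is below and red above the group mean. The column of SM+MSTF replicate 1 is below 0 for all 8, down to -1.92 for Fos.

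Markers of the liver's cell types were read beside this pattern. The 6 hepatocyte markers, led by Alb, were all tested, which fits the labelled tissue, and none of them was called. Their summed intensity was 841000 in SM+MSTF replicate 1 and 924000 to 1110000 on the other arrays, so that animal was low here too. The mean deviation of this list followed that of the members (r = 0.81, rho 0.78, 10 arrays), and r was 0.43 without the 2 arrays farthest from the median of the list. These 2 arrays were picked for each list by its own values. The values without them can therefore rest on different arrays and are not compared between lists. Over all 10 arrays r was 0.48 for the natural killer list and 0.23 for the T cell list. Without the 2 farthest arrays of each list it was 0.64 and 0.74. For the B cell list r was -0.43 over all arrays and -0.59 without its 2 farthest. In the same order, r was 0.22 and 0.41 for stellate, 0.255 and 0.46 for cholangiocyte, and 0.33 and 0.36 for erythroid markers. It was 0.06 and 0.24 for endothelial, -0.16 and -0.10 for neutrophil, and -0.03 and -0.27 for Kupffer cell and macrophage markers. On SM+MSTF replicate 1, 54.96% of probes were well above background, within the 51.9% to 61.44% of all arrays. The part of cell composition in the shared deviations was not tested.

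Of all 52 marker genes, 42 had a probe and 35 were tested. In SM against control 1 of the 35 was called, where limma called 0.974% of all tested probes higher and 1.42% lower. In SM+MSTF against SM it was again 1 of 35, against 0.318% of all tested probes higher and 0.961% lower. A single call among 35 is near these shares and is no result about the markers as a set. Klrd1, a receptor subunit of natural killer cells, was the 1 marker called, with a fall in SM against control (log2 fold change -1.22, adjusted p = 0.027, all 4 SM arrays below all 3 controls) and a higher level in SM+MSTF than in SM (1.15, adjusted p = 0.045). It was well above background on only 2 of 4 SM arrays and entered the tested probes only through the other groups, where it is higher. The size of these differences is therefore uncertain, and with normexp background correction they were -0.36 and 0.29 and not called. The first call was lost under 10 of 22 alternatives and the second under 16 of 22. Both were lost without a filter on dim probes and under the random slide block (adjusted p = 0.090 and 0.099), and the second with 75th percentile scaling (adjusted p = 0.077). The first call was also lost without any single control array or without SM replicate 1 or 3, with adjusted p from 0.063 to 0.107. The second was lost without any control array, any SM+MSTF array or SM replicates 1, 3 or 4, with adjusted p from 0.052 to 0.112. Nkg7, the brightest gene of the 5 in that list, was not called (-0.28), and Ncr1 was not well above background in any liver. The summed intensity of that list was 993, 1190 and 1200 in control, 656, 573, 966 and 1470 in SM and 754, 1120 and 1720 in SM+MSTF.

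Among the wider set of related genes, Egr3 and Egr4 were the 2 called higher in SM than in control. Egr4, a zinc finger factor of the family of Egr1, read 2.53, 3.01 and 2.38 in control, 4.84, 5.16, 5.27 and 5.60 in SM and 2.72, 2.81 and 2.48 in SM+MSTF. It was well above background on all 4 SM arrays and on no array of the other groups, so only a lower limit can be given. Egr4 rose at least 1.78-fold in SM against control (adjusted p = 0.00083) and was at least 1.83-fold lower in SM+MSTF than in SM (adjusted p = 0.00056). This limit sets the mean of the brighter group against, per array of the dimmer group, the higher of the probe's own signal and the lowest signal well above background. Egr4 was tested only because the SM arrays, where it is high, passed the filter, and both calls were also made without a filter on dim probes. With normexp the log2 fold change was 0.64 against control and -0.64 against SM, less than the limits above, so the size of the difference depends on the background correction. The call against control was kept under all 22 alternatives that gave it a value, with adjusted p from 0.00026 to 0.0207, and that against SM under 21 of 22, the exception being the methods' t-test after adjustment (adjusted p = 0.056). None of the alternatives could separate SM from its slide, as all 4 SM arrays lay on a slide of their own. The same holds for every other call that involves SM.

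Egr3, its close relative, read 3.24, 3.55 and 3.25 in control, 4.23, 4.14, 4.63 and 4.50 in SM and 2.97, 3.49 and 3.46 in SM+MSTF. Again only the 4 SM arrays were well above background, and all 4 lay above all other arrays. Egr3 was called higher in SM than in control (adjusted p = 0.020) and lower in SM+MSTF than in SM (adjusted p = 0.019). Like Egr4, it entered the tested probes only through SM, and both calls were also made without a filter on dim probes. The signals are so close to background that no fold is given against control, and the limit against SM+MSTF is at least 1.02-fold. Of 22 alternatives, 10 lost the first call and 8 the second. Among them were normexp background correction (adjusted p = 0.575 and 0.156), the random slide block (adjusted p = 0.064 and 0.053) and leaving out any 1 control or SM replicates 1, 3 or 4 for the first (adjusted p from 0.050 to 0.081), and SM replicates 1 or 3 or SM+MSTF replicate 1 for the second (adjusted p from 0.054 to 0.064).

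**Figure D5:**
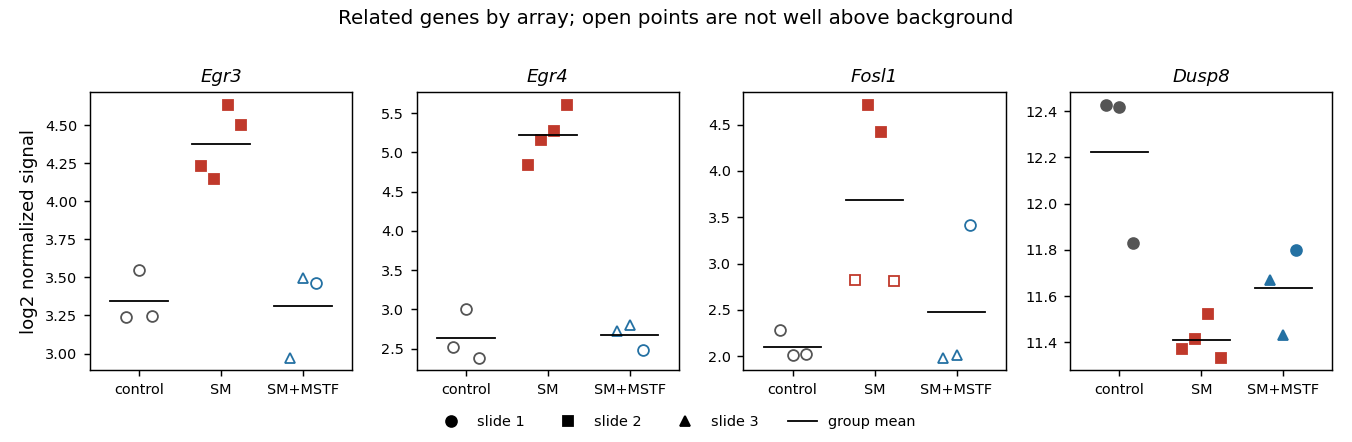
Log2 normalized signal (vertical axes) of Egr3, Egr4, Fosl1 and Dusp8 by group, 1 point per array, with group means as lines and slides as marker shapes; open points are not well above background. The 4 SM arrays of Egr4 lie between 4.84 and 5.60, and all other arrays at 3.01 or below.

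Fosl1, another FOS family member picked after its values were seen, did not pass the filter. It read 2.28, 2.01 and 2.02 in control, 2.83, 4.71, 4.42 and 2.81 in SM and 1.98, 2.02 and 3.42 in SM+MSTF, and only SM replicates 2 and 3 were well above background. Of the 20 listed AP-1 and bZIP partners 15 were tested and 0 were called, with a median log2 fold change of 0.12 in SM against control. The brightest were Atf4, the effector of the integrated stress response (0.12 in SM against control, 0.60 in SM+MSTF against control), and Jund, the JUN protein of resting cells (0.18 and -0.04). Over the alternatives run, these values ran from -0.00077 to 0.29 and from 0.28 to 0.76 for Atf4. For Jund they ran from 0.04 to 0.37 and from -0.48 to 0.18.

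Other immediate early and rapid response genes gave 36 tested genes of 42. Egr3 and Egr4 were called higher in SM than in control and lower in SM+MSTF than in SM, and no other gene of the list was called. Fitted values lay below 0 for 21 of 36 in SM against control, with a median of -0.10. The brightest genes were Btg1, an antiproliferative factor (-0.09 in SM against control), and Gadd45g, a stress sensor of the growth arrest and DNA damage family (-0.10, and -1.02 in SM+MSTF against control, adjusted p = 0.532). With single arrays left out, the values of SM against control ran from -0.18 to 0.04 for Btg1 and from -0.46 to 0.20 for Gadd45g, so neither sign is stable. Nr4a1 read 9.15, 10.35 and 8.26 in control, 7.30, 8.72, 7.73 and 8.57 in SM and 8.27, 10.45 and 9.56 in SM+MSTF, and its differences were not called (-1.18 in SM against control, adjusted p = 0.380, from -1.67 without control replicate 3 to -0.63 without control replicate 2; 1.35 in SM+MSTF against SM, adjusted p = 0.319, from 0.83 without SM+MSTF replicate 2 to 1.93 without SM+MSTF replicate 1).

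Of the feedback inhibitors, which shut the MAP kinase signal or the messages off, 12 of 19 were tested. Dusp8, a phosphatase that acts on stress-activated MAP kinases, was the 1 called. It read 12.43, 12.42 and 11.83 in control, 11.37, 11.41, 11.52 and 11.33 in SM and 11.67, 11.43 and 11.80 in SM+MSTF. Every SM array lay below every control, and so did every SM+MSTF array, with control replicate 3 just above the highest of these. Dusp8 fell by 0.82 on the log2 scale in SM against control (SE 0.16, adjusted p = 0.030), and its value in SM+MSTF against control was -0.59 (adjusted p = 0.422). The SM call was lost under 10 of 23 alternatives, over which the adjusted p ran from 0.019 to 0.123, among them the random slide block (adjusted p = 0.098), no filter on dim probes (adjusted p = 0.058) and leaving out control replicate 1 or 2 or any SM array. The brightest genes of the list, the EGF receptor inhibitor Errfi1 and the message-decay factor Zfp36l1, gave -0.03 and -0.02.

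No other list held a called gene in any comparison. The kinases and serum response factor cofactors upstream of the members (17 of 24 tested) had a median log2 fold change of 0.05 in SM against control, with Rps6ka1 at 0.10 and Map2k2 at 0.12. The MYC network, the factors that pair or compete with MYC (8 of 13 tested), had a median of 0.12, with Mlxipl at 0.29 and Mlx at -0.01. The 15 MYC target genes, all tested, had a median of 0.10, with Npm1 at -0.11 and Ldha at 0.05. Dimmer Npm1 probes gave 0.11 and 0.0020, so the sign of Npm1 depends on the probe. KLF and SP factors (7 of 11 tested) had a median of 0.23, with Klf15 at 0.01 and Klf9 at -0.08. Target genes of AP-1 and EGR1 (10 of 16 tested) had a median of -0.04, with Vegfa at 0.25 and Icam1 at -0.11. Over the 8 lists, the calls were thus those of Egr3, Egr4 and Dusp8. They were 2.5% of the 120 tested genes in SM against control and 1.67% in SM+MSTF against SM. Over all tested probes limma called 0.974% higher and 1.42% lower in SM against control. In SM+MSTF against SM it called 0.318% higher and 0.961% lower. The counts are near these shares and are no result about the lists. Egr3 and Egr4 were tested only through the group where they are high. Actb and Gapdh were not called, at 0.04 and 0.18 in SM against control.

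Named genes were also compared with the mean of the standardized members over the 10 arrays. This mean was taken over all 9 members with a probe, so it includes Fosb, which is otherwise kept apart. The most alike among 9176 genes compared were Lamc1 (r = 0.94), Thbd (0.88), Cited4 (0.88), Tmem161a (0.88) and Efcab7 (0.87). Without the 2 arrays farthest from the median, SM+MSTF replicate 1 and SM replicate 3, r was 0.60, 0.64, 0.33, 0.63 and 0.81. Likeness to the members thus rests in large part on these 2 animals, except for Efcab7.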

How the data were processed

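Liver RNA of 10 rats was measured on one-colour Agilent arrays, 1 array per rat. Per the file headers and the submitters' processing notes, Feature Extraction 10.7 gave background-subtracted intensity values for 43379 spots per array. The authors normalized these by quantiles and deposited log2 values for each probe, which served as an alternative. Here the deposited intensity was quantile normalized, converted to log2 and reduced to a mean per probe, leaving out control spots and spots marked as outliers (76 to 118 per array). No spot was saturated, and median signal over background was 2.195 to 2.544. The number of arrays limits the precision. Accessions were matched to RefSeq gene symbols of GRCr8, which named 17512 of 41012 probes.

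A probe was tested (22990 in all) if some group had it well above background throughout. All 3 comparisons came from 1 fit with R 4.3.3 and limma 3.58.1 (lmFit, eBayes), with Benjamini-Hochberg adjustment over all tested probes and a fold minimum of 1.5. The fit was tested on simulated data. For a gene with several probes the brightest was used.

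Named genes were the members, from each list the called genes and the 2 tested genes of highest signal, the 5 genes most like the members, Actb and Gapdh. Nr4a1, Fosl1 and Ncr1 were added after their values were seen. Members and lists were chosen with earlier results of these data known. Alternatives covered scaling, background correction, filters, tests, blocks and single arrays left out. Protein sequences were not used here.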

Additional observations from a re-analysis of the deposited data

Results flagged for a closer look

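Among 32 named genes checked in the 4 SM arrays, 2 had 1 array far from the rest. Gapdh read 15.94 in SM replicate 4 and Btg1 read 14.65 in SM replicate 2, both above the other SM arrays. Chance alone flags about 1 in 20 such groups. None of the immediate early members had such an array. Groups of 3 arrays were not checked.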

How the results depend on the processing

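None of the 8 members named by accession was called in any of the 3 comparisons under the alternatives run, with 1 exception. The methods' t-test without adjustment and with the fold minimum passed 1 of them, Jun, in SM against control. Fosb was kept out of this count. Scan time split the arrays exactly as the slide did and was not run separately. Egr3 and Egr4 were well above background in SM only. What limited the other genes was not tested.

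The count of 551 probes called in SM against control was 214 with normexp background correction, of which 17.8% were higher against 40.7% before, 338 without a filter, 337 over probes well above background on all arrays, 1292 with an unadjusted p, 1133 with the methods' t-test and 322 with it after adjustment, and 86 under the random slide block. It ran from 61 to 717 with single arrays left out, 61 without control replicate 2. The count of 0 in SM+MSTF against control was 689 with an unadjusted p, 285 with the methods' t-test, 291 with the slide as a fixed block and 50 within slide 1 (1 SM+MSTF animal in both), and ran from 0 to 248 with single arrays left out, 248 without SM+MSTF replicate 3. The count of 294 in SM+MSTF against SM was 57 with normexp, 140 over probes well above background on all arrays, 150 with only these groups in the fit, 1227 with an unadjusted p, 864 with the methods' t-test and 13 with it after adjustment, and 103 under the random slide block, and ran from 98 to 293 with single arrays left out. The cause was not tested.

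Samples with the same replicate number did not deviate together (r from -0.10 to 0.17), so they share only a number. With the replicate number as a block, 52 probes were called in SM against control and 65 in SM+MSTF against SM. None of the 8 members named by accession was called, and Egr3, Dusp8 and Klrd1 lost their calls. In SM+MSTF against SM the log2 fold change turned to -0.0058 for Ier3, 0.053 for Myc and 0.013 for Klf6.

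No other log2 fold change that changed sign was called. Klf6 was 0.12 in SM+MSTF against SM as the mean of its probes. In SM+MSTF against control, Klf6 was 0.13 and Klrd1 0.33 with the fixed slide block and within slide 1. With single arrays left out, Ier2 ran from -0.31 to 0.074 in SM against control. In SM+MSTF against control, Fos ran from -1.39 to 0.19, Junb from -0.35 to 0.76, Ier2 from -0.53 to 0.030, Atf3 from -0.62 to 0.24 and Klrd1 from -0.27 to 0.076. In SM+MSTF against SM, Fos ran from -0.58 to 1.01, Jun from -0.23 to 0.44, Ier2 from -0.42 to 0.14, Ier3 from -0.059 to 0.19, Myc from -0.22 to 0.065 and Klf6 from -0.29 to 0.23. In the last 2 comparisons the highest value came without SM+MSTF replicate 1, except for Ier3 (without SM replicate 2). The cause was not tested.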
